A study of Mus musculus with 8 samples.

Results

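The genes described here make, move, sense and destroy sphingosine-1-phosphate (S1P), a signalling lipid. They are 9 of the 35975 mouse genes summed from the deposited tables: the receptors S1pr1, S1pr2 and S1pr3, the sphingosine kinases Sphk1 and Sphk2, the exporter Spns2, the lyase Sgpl1, and the lipid phosphatases Plpp1 and Plpp3. They were chosen by their place in the pathway, with their difference between the iron positive and iron negative cells already known. Their fold changes and calls are therefore a description, and nothing rests on them as a test.

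Cells came from fibrosarcoma, a connective tissue cancer, grown under the skin of C57BL/6 mice of wild-type genotype from cells matched to that strain. Tumors were digested with collagenase B and DNase I, red cells were lysed, and the suspension was passed over magnetic columns. The iron positive group is the eluate held by the column and the iron negative group is the flowthrough. Each holds 4 bulk RNA-seq libraries tagged 3L, 3R, 4R and 5L, and all 8 share the strain, the tumor type and the digest. No further treatment is named in the labels, and age and sex are not given in the sources used here. The labels name no antibody sort, so each library is a mixture of cells, and they do not say whether a tag is 1 animal or 1 tumor. The spread between libraries may therefore be partly technical.

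S1P is made inside cells when a kinase phosphorylates sphingosine, which itself comes from ceramide. Blood endothelial cells, red cells and platelets are known sources of S1P in plasma, and lymphatic endothelium releases it into lymph through Spns2. Outside the cell, S1P acts on G protein-coupled receptors: S1pr1 couples to Gi, and S1pr2 and S1pr3 also to other G proteins. The signal ends when a phosphatase returns S1P to sphingosine or when the lyase splits it for good. The pathway is known for keeping vessel walls tight, for mural cell recruitment and for guiding lymphocytes out of tissues.

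Summed estimated counts were 19036520 to 22588951 in iron positive libraries and 20603878 to 24306607 in iron negative libraries. Macrophage markers dominated both fractions, with a summed 25800 to 33100 TPM (transcripts per 1000000) in iron positive and 32500 to 34400 TPM in iron negative libraries. Of the 12 listed macrophage markers, 4 were lower and 0 higher in iron positive cells. All 13 endothelial markers were higher in iron positive cells, where they summed to 101, 929, 659 and 178 TPM (tags 3L, 3R, 4R and 5L), against 33.2, 55.1, 49.6 and 38.0 TPM in iron negative cells. Over all genes tested, 8.49% were higher. Several of these markers, such as Tek and Cldn5, passed the filter on low counts only with the help of their iron positive libraries. Pericyte and smooth muscle markers summed to 49.0 to 339 TPM in iron positive and 18.7 to 40.8 TPM in iron negative libraries, with 8 of 11 higher. Fibroblast and fibrosarcoma markers summed to 263 to 1960 TPM in iron positive and 78.5 to 163 TPM in iron negative libraries, with 6 of 11 tested higher. Lymphatic endothelial markers reached only 7.32 to 22.0 TPM in iron positive and 0.742 to 2.64 TPM in iron negative libraries. Of these, Lyve1 alone gave 21.3, 2.03, 4.95 and 6.31 TPM in iron positive 3L, 3R, 4R and 5L, and Prox1 at most 0.109 TPM. Flt4 gave 0.672, 6.86, 4.11 and 1.01 TPM in the same libraries. Of the 2 lymphatic markers tested, Flt4 was higher in iron positive cells and Lyve1 was not called. The summed endothelial and the summed pericyte and smooth muscle signal were thus uneven among iron positive libraries, highest in 3R and lowest in 3L. In bulk samples, fewer cells of a type and less RNA per cell cannot be told apart.

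Sequences are shown for the members whose transcript forms or start sites bear on the results below. Plpp1 has 2 annotated coding transcripts that use either of 2 alternative second exons, at chr13:112834859-112835013 for Plpp1-201 and chr13:112851403-112851554 for Plpp1-202 (GRCm38, plus strand). The exon is in capitals and the 12 transcribed bases on either side, shared by both forms, are in lower case.
Plpp1-201: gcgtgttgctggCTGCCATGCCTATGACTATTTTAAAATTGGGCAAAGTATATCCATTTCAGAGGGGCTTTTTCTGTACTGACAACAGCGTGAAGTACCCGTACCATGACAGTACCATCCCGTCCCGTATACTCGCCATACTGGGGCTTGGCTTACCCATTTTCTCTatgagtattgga
Plpp1-202: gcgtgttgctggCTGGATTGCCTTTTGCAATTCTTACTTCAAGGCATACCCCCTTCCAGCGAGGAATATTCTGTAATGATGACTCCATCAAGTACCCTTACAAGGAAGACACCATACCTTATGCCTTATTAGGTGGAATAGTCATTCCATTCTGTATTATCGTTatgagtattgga
The exons are 155 and 152 bases long, and 101 of 169 aligned columns were identical (59.8%). Both lie in the coding part of the messenger RNA, and the transcripts also differ in their annotated ends.

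For Plpp3, the member with the largest fold change of the 9, and for Sgpl1, the most abundant member, the 250 bases before the RefSeq start (GRCm38.p6) are compared. For Spns2 the same window is shown because the RefSeq start sits at the first exon of Spns2-205, a short form described below. Capitals mark matches on either strand to CACCC, the core bound by Krüppel-like factors, to AGGAAG, an ETS family core, and to GGGCGG, the GC box, so that a match on the other strand reads as its reverse complement. TATAAA was also searched, and none of these motifs overlapped in the windows shown. Windows were found for 7 of the 9 members, S1pr1 and Plpp1 not among them.
Plpp3, chr4:105157097-105157346, plus strand: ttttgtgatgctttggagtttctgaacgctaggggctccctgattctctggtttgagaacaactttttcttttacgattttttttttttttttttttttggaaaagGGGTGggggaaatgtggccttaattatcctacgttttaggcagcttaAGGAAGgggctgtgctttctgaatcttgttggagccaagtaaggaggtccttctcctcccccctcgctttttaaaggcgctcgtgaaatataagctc
Sgpl1, chr10:61147685-61147934, minus strand: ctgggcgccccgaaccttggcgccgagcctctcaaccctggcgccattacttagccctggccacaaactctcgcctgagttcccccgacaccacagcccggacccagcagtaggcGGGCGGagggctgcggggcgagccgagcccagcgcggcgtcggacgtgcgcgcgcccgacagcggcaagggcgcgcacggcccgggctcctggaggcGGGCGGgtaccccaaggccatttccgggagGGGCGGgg
Spns2, chr11:72475028-72475277, minus strand: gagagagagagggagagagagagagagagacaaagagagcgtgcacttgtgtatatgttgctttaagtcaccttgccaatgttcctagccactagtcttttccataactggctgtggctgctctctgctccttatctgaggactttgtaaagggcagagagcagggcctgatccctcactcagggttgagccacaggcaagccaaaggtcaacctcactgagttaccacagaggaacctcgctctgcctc
The Plpp3 window held 1 CACCC, 1 AGGAAG and 0 GGGCGG, and its GC content was 42.4%. The Sgpl1 window held 3 GGGCGG and neither of the other cores, at a GC content of 74.8%. The Spns2 window held none of the motifs, at 51.6% GC. Among 32851 windows of the same length over all genes, 52.0% held CACCC, 29.5% AGGAAG, 32.7% GGGCGG and 7.59% TATAAA, and the median GC content was 52.4%. A match is a string of letters, not a binding site.

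Of the 9 members, 6 were called higher in iron positive cells and 0 lower, where called means a Benjamini-Hochberg adjusted p under 0.05 in edgeR's quasi-likelihood fit over 13343 tested genes. The genes called higher were S1pr1, S1pr3, Sphk1, Spns2, Plpp1 and Plpp3, while S1pr2, Sphk2 and Sgpl1 were not called. Over all tested genes, 8.49% were called higher and 5.21% lower, and in 11.2% every iron positive library lay above every iron negative library. The same 6 members met that last condition. All 9 members passed the filter on low counts, Sphk1 only with the help of its iron positive libraries. The members' median log2 fold change was 2.21, beside -0.01 over all genes tested. The calls depended on single libraries: 0 members were called without iron negative 3L, 3R or 4R, 1 without iron negative 5L, 3 without iron positive 4R and 5, all but S1pr3, without iron positive 3R, although all 6 kept an unadjusted p under 0.05 in each of these 6 fits. Over all genes tested, edgeR likewise called 0 higher and 0 lower without iron negative 3L, 3R or 4R. It called 399 higher and 214 lower without iron positive 4R, and 1141 and 568 without iron positive 3R. With all 8 libraries these counts were 1133 and 695. DESeq2 called 6 members in each of its 8 fits with a library left out.

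**Figure D1:**
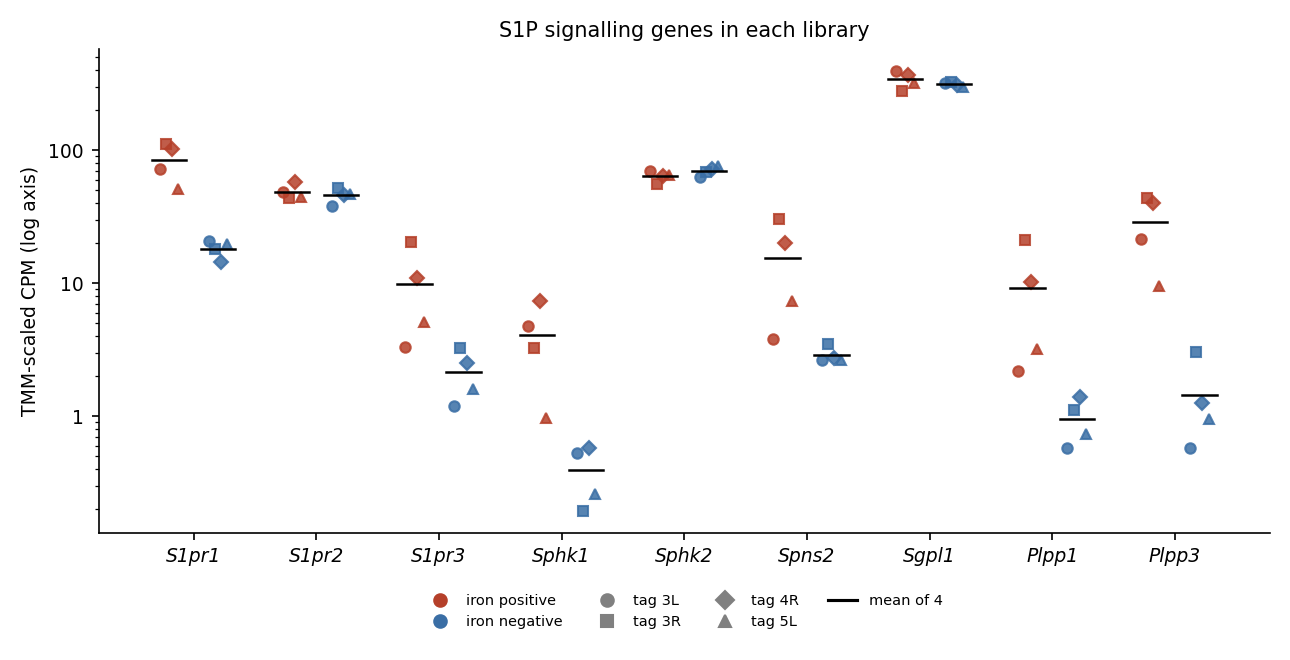
Level of each of the 9 genes in every library, as TMM-scaled CPM on a log axis, with iron positive libraries in red left of iron negative libraries in blue, symbols for tags and bars for means of 4. S1pr1, S1pr3, Sphk1, Spns2, Plpp1 and Plpp3 show no overlap between the fractions, while S1pr2, Sphk2 and Sgpl1 do.

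S1pr1 (chr3:115710433-115715072, minus strand), the receptor that holds endothelial junctions closed and draws lymphocytes into blood and lymph, was the most abundant receptor in iron positive cells. It had 72.3, 111, 103 and 51.1 CPM (TMM-scaled counts per 1000000) in iron positive libraries 3L, 3R, 4R and 5L, against 20.7, 18.1, 14.5 and 19.6 CPM in iron negative libraries. Every iron positive library lay above every iron negative one, and the iron negative values were tight. The means were 84.5 ± 27.9 CPM in iron positive and 18.2 ± 2.71 CPM in iron negative cells (SD, n = 4 each), a log2 fold change of 2.21 ± 0.25 (SE). The gene has a single annotated transcript in the tables.

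S1pr3 (chr13:51408639-51422797, plus strand), a receptor best known from vascular smooth muscle and endothelium, was far less abundant. Iron positive libraries had 3.34, 20.3, 11 and 5.15 CPM for tags 3L, 3R, 4R and 5L, against 1.19, 3.27, 2.51 and 1.61 CPM in iron negative libraries. The fractions did not overlap, but iron positive 3L at 3.34 CPM and iron negative 3R at 3.27 CPM almost touched. The mean was 9.94 ± 7.62 CPM in iron positive and 2.14 ± 0.928 CPM in iron negative cells, and the log2 fold change was 2.21 ± 0.58, the same as for S1pr1 with more than double its error. Without iron positive 3R it was 1.60 and not called (edgeR adjusted p = 0.0588). The highest iron positive library had 6.07 times the lowest, against 2.18 times for S1pr1.

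S1pr2 (chr9:20962361-20976781, minus strand), a receptor that couples to G12/13 and is known for confining cells and opposing migration, had overlapping levels in the fractions. It had 48.3, 43.5, 58.3 and 44.9 CPM in iron positive libraries against 38.2, 51.8, 45.9 and 47.3 CPM in iron negative libraries. The ranges overlapped, and the iron positive library was the higher one in 2 of 4 tags. The log2 fold change was 0.09 ± 0.12.

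Among all 5 S1P receptors, compared per length in TPM, S1pr1 made up 71.8 ± 3.85% of receptor transcripts in iron positive libraries and 42.2 ± 5.76% in iron negative libraries (SD, n = 4 each). S1pr2 made up 21.5 ± 5.34% in iron positive and 52.6 ± 4.70% in iron negative libraries. The order of these receptors was therefore reversed between the fractions in mean share, and the ranges of both shares were apart. S1pr3 contributed 5.20 ± 2.78% in iron positive and 3.28 ± 1.35% in iron negative libraries, with overlapping ranges. S1pr4, the receptor of blood leukocytes, gave 1.45 ± 0.444% in iron positive and 1.84 ± 0.725% in iron negative libraries, and S1pr5, known from natural killer cells and brain, at most 0.083% in iron positive and 0.262% in iron negative libraries.

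**Figure D2:**
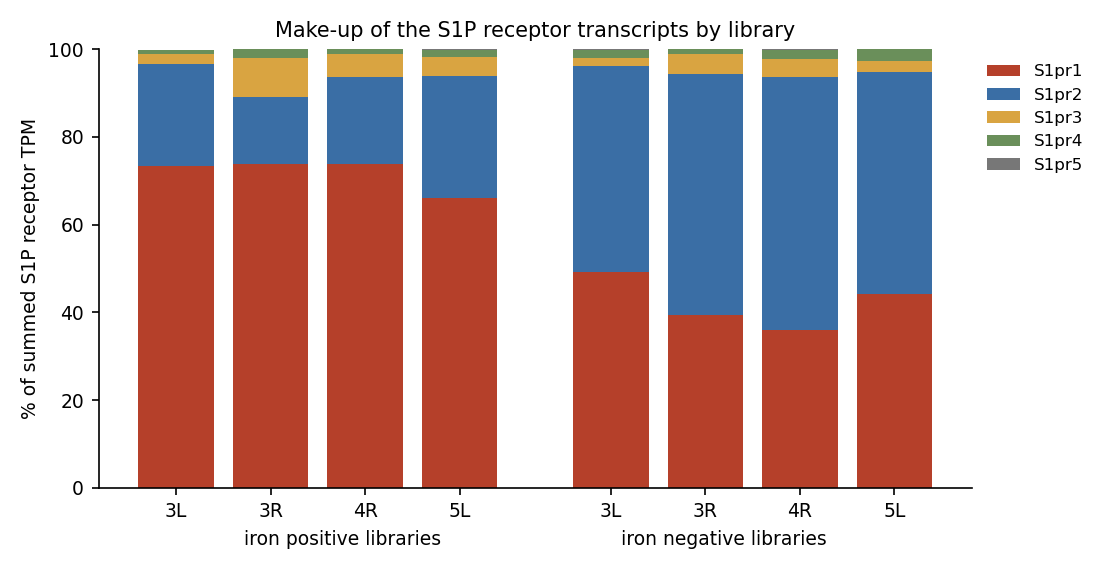
Share of each S1P receptor in the summed receptor TPM of each library, iron positive libraries left and iron negative libraries right, labelled by tag. S1pr1 fills 66.0 to 73.9% in iron positive libraries and 36.1 to 49.3% in iron negative libraries, with S1pr2 taking most of the rest.

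Sphk1 (chr11:116530925-116536674, plus strand), the growth factor-responsive kinase that works at the plasma membrane, was scarce. Iron positive libraries had 4.74, 3.28, 7.32 and 0.969 CPM, against 0.530, 0.195, 0.582 and 0.261 CPM in iron negative libraries. The fractions did not overlap, yet the iron negative values rest on 12, 4.0, 13.2 and 6.0 estimated counts. Means were 4.08 ± 2.66 CPM in iron positive and 0.392 ± 0.193 CPM in iron negative cells, a log2 fold change of 3.35 ± 0.63. A transcript annotated as retained intron, Sphk1-208, took 152.4 of 349.7 pooled counts in iron positive libraries (43.6%) and 16 of 35.2 in iron negative libraries (45.4%). The antisense gene Gm29292 overlaps 2153 bases of the locus, and the sources used here do not state whether strand was used.

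Sphk2 (chr7:45709467-45718002, minus strand), the kinase that also acts in the nucleus and mitochondria, was not called. It had 69.5, 56.2, 63.8 and 65.8 CPM in iron positive libraries against 62.8, 69.0, 72.3 and 75.9 CPM in iron negative libraries, with overlapping ranges and a log2 fold change of -0.13 ± 0.08, or 0.06 when scaled to macrophage markers. Iron positive 3L was above its iron negative partner, and the other 3 iron positive libraries were below theirs. In TPM, Sphk2 exceeded Sphk1 by 5.62 to 69.1 times in iron positive and by 75.3 to 205 times in iron negative libraries. Sphk2 overlaps Rpl18, an abundant ribosomal protein gene on the opposite strand, over 2546 bases. Other members overlap opposite-strand genes too: S1pr3 the noncoding Gm32834 over 10048 bases, Plpp1 Mtrex over 477 and Spns2 Mybbp1a over 131.

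Spns2 (chr11:72451638-72489904, minus strand), the S1P exporter of endothelial cells, varied most among iron positive libraries after Plpp1. It had 3.79, 30.6, 20.2 and 7.4 CPM in iron positive libraries against 2.65, 3.51, 2.73 and 2.65 CPM in iron negative libraries. Iron positive 3L lay just above the highest iron negative library, 3R, while iron positive 3R and 4R stood far above. The means were 15.5 ± 12.3 CPM in iron positive and 2.89 ± 0.417 CPM in iron negative cells, a log2 fold change of 2.42 ± 0.59.

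In TPM the fractions of Spns2 overlapped, with 2.21, 17.9, 11.5 and 3.85 TPM in iron positive and 3.48, 7.89, 4.93 and 4.01 TPM in iron negative libraries. The difference between the scales came from Spns2-205, a noncoding form 375 bases long whose first exon begins inside the gene at the RefSeq start shown above. Spns2-205 had 0.0, 0.0, 0.0 and 0.52 estimated counts in iron positive libraries against 4.91, 12.7, 7.95 and 6.23 in iron negative libraries. A few counts on so short a transcript weigh heavily per length: it held 0.0395% of the gene's pooled counts in iron positive libraries and 12.5% in iron negative libraries. Its share per library was 0.0773 ± 0.155% in iron positive and 12.3 ± 4.12% in iron negative cells (exact permutation test, two-sided, p = 0.0286, the smallest 4 against 4 allows, adjusted p = 0.171 over 6 transcripts, a test added after its values were seen). At that smallest p a transcript by itself could not pass the adjusted threshold, so the test could not decide. The full-length coding form Spns2-201 had 1.17, 12.1, 7.79 and 2.94 TPM in iron positive against 0.83, 1.15, 0.903 and 0.852 TPM in iron negative libraries, without overlap.

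Sgpl1 (chr10:61098642-61147703, minus strand), the endoplasmic reticulum lyase that degrades S1P irreversibly, was the most abundant member in both fractions. It had 394, 279, 371 and 322 CPM in iron positive libraries against 321, 329, 310 and 298 CPM in iron negative libraries. The ranges overlapped, with iron positive 3R the lowest of all 8 libraries and iron positive 3L the highest. The log2 fold change was 0.12 ± 0.11. In TPM, Sgpl1 exceeded Sphk2 by 4.24 to 4.94 times in iron positive and by 3.50 to 4.27 times in iron negative libraries.

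Plpp3 (chr4:105157347-105232764, plus strand), a cell-surface phosphatase that removes phosphate from S1P and lysophosphatidic acid and is needed for vascular development, had the largest log2 fold change of the 9. It had 21.7, 44.1, 40.2 and 9.47 CPM in iron positive libraries against 0.574, 3.02, 1.25 and 0.957 CPM in iron negative libraries. The lowest iron positive library, 5L, was still above the highest iron negative library, 3R. Means were 28.9 ± 16.2 CPM in iron positive and 1.45 ± 1.08 CPM in iron negative cells, a log2 fold change of 4.32 ± 0.63, and 4.95 without iron negative 3R.

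Plpp1 (chr13:112800792-112867894, plus strand), a relative of the same enzyme family, had 2.19, 21.2, 10.3 and 3.21 CPM in iron positive libraries against 0.574, 1.12, 1.39 and 0.739 CPM in iron negative libraries. The fractions did not overlap, and iron positive 3R held 9.65 times the level of iron positive 3L. The log2 fold change was 3.27 ± 0.74, and 2.46 without iron positive 3R. In TPM, the ratio of Plpp3 to Plpp1 was 0.858 to 4.09 in iron positive and 0.363 to 1.06 in iron negative libraries.

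The forms of Plpp1 that carry the 2 alternative second exons took unequal shares in the deposited estimates, though the test below could not decide on the difference. Plpp1-201 took 61.4, 60.1, 61.9 and 58.6% of the gene's counts in iron positive libraries against 15.2, 50.6, 52.0 and 34.7% in iron negative libraries. The iron positive shares were nearly constant although the gene's level was not, and all lay above the iron negative shares, which rest on 13, 23.2, 31.0 and 17.1 estimated counts. The mean share was 60.5 ± 1.49% in iron positive and 38.1 ± 17.2% in iron negative cells (exact permutation test, two-sided, p = 0.0286, the smallest possible, adjusted p = 0.0857 over 6 transcripts). The gene entered this test only with a lower minimum count, added after the data were seen. Even at the smallest possible p, its 2 forms by themselves could not pass the adjusted threshold over 6 transcripts. With the minimum of 20 counts in every library, the 4 transcripts of Sphk2 and Sgpl1 that were tested gave 0 calls. Sgpl1-202 took 75.2 ± 2.31% in iron positive and 77.6 ± 3.46% in iron negative cells (exact permutation p = 0.314, adjusted 0.629), and Sphk2-202 took 55.0 ± 6.69% in iron positive and 54.6 ± 4.10% in iron negative cells (exact permutation p = 0.886, adjusted 0.971).

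Per length, the members' mean TPM in iron positive cells ran from Sgpl1 (132 ± 17.4) through S1pr1 (38.7 ± 14.2), Sphk2 (28.9 ± 2.25), Plpp3 (12.8 ± 7.59), S1pr2 (10.8 ± 1.65), Plpp1 (10.1 ± 9.66), Spns2 (8.88 ± 7.27) and S1pr3 (3.06 ± 2.42) to Sphk1 (2.81 ± 2.01). Of the neighbours in that order, only Sgpl1 with S1pr1 and Sphk2 with Plpp3 had ranges that did not overlap. In iron negative cells the order was Sgpl1 (119 ± 6.39), Sphk2 (30.9 ± 2.98), S1pr2 (9.97 ± 1.32), S1pr1 (7.95 ± 0.936), Spns2 (5.08 ± 1.97), Plpp1 (1.04 ± 0.395), S1pr3 (0.629 ± 0.286), Plpp3 (0.618 ± 0.468) and Sphk1 (0.292 ± 0.0974). There the neighbours with ranges apart were Sgpl1 and Sphk2, Sphk2 and S1pr2, and Spns2 and Plpp1. The Spns2 level there includes the short form Spns2-205, at 1.95, 6.47, 3.49 and 2.99 TPM in iron negative 3L, 3R, 4R and 5L. The long form Spns2-201 alone, at 0.83 to 1.15 TPM, overlapped Plpp1, at 0.631 to 1.51 TPM.

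The size of the difference depended on the tag. Within tags 3L, 3R, 4R and 5L, the iron positive library had 3.49, 6.14, 7.13 and 2.61 times the S1pr1 CPM of its iron negative partner, and 37.7, 14.6, 32.1 and 9.90 times the Plpp3 CPM. Spns2 gave 1.43, 8.73, 7.39 and 2.79 times and Plpp1 3.82, 18.9, 7.44 and 4.35 times. Tag 5L gave the smallest ratio for S1pr1, Plpp3 and Sphk1, and tag 3L for S1pr3, Spns2 and Plpp1. Restricted to tags 3L and 5L, which were lower in vascular markers than 3R and 4R in both fractions, 2 members were called, S1pr1 and Plpp3, and the log2 fold change was 1.59 for S1pr3 and 1.07 for Spns2.

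**Figure D3:**
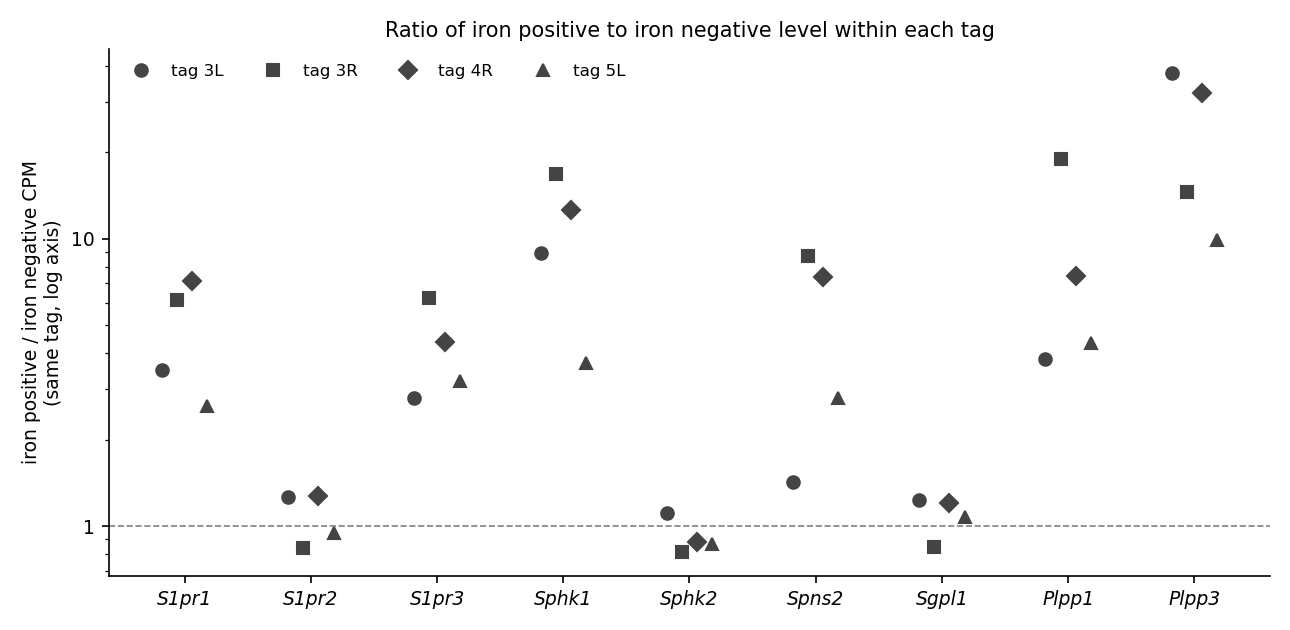
Ratio of iron positive to iron negative CPM within each tag for the 9 genes, on a log axis with a dashed line at equality; each symbol is 1 tag. Ratios for S1pr1, S1pr3, Sphk1, Spns2, Plpp1 and Plpp3 all lie above 1, from 1.43 (Spns2, tag 3L) to 37.7 (Plpp3, tag 3L), and those of S1pr2, Sphk2 and Sgpl1 fall on both sides.

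Markers of other cell types moved with several members. Among iron positive libraries, the summed endothelial TPM ran 3R, 4R, 5L, 3L from high to low, as did the sums of pericyte, fibroblast and red cell markers, and S1pr3, Spns2 and Plpp1 had the same order in CPM. S1pr1 and Plpp3 ran 3R, 4R, 3L, 5L, and Sphk1 ran 4R, 3L, 3R, 5L. Among iron negative libraries, the endothelial sum ran 3R, 4R, 5L, 3L, and of the called members S1pr3, Spns2 and Plpp3 had this order in TPM. Plpp1 ran 4R, 3R, 5L, 3L there, Sphk1 4R, 3L, 3R, 5L and S1pr1 3L, 5L, 3R, 4R. As a share of the summed TPM of the 13 endothelial markers, Plpp1 was nearly level in all 8 libraries, at 2.16, 2.49, 1.74 and 1.93% in iron positive against 1.90, 2.20, 3.05 and 2.16% in iron negative libraries, while its own TPM spanned 36.7 times. Spns2 was at 2.20, 1.93, 1.75 and 2.17% in iron positive against 10.5, 14.3, 9.96 and 10.6% in iron negative libraries, where the short form Spns2-205 adds to its TPM. Its long form Spns2-201 was at 1.16, 1.30, 1.18 and 1.66% in iron positive against 2.50, 2.09, 1.82 and 2.25% in iron negative libraries, and S1pr3 at 0.526 to 0.938% in iron positive against 0.994 to 1.75% in iron negative libraries. For Spns2, Spns2-201 and S1pr3 this proportion was lower in every iron positive library than in every iron negative library.

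Among iron positive libraries the proportion varied more for S1pr1, Plpp3 and Sphk1. S1pr1 stood at 30.6, 5.62, 7.44 and 12.9% of the endothelial sum in iron positive libraries and at 25.9, 14.7, 13.3 and 22.5% in iron negative libraries. Plpp3 stood at 8.81, 2.14, 2.79 and 2.30% in iron positive and at 0.693, 2.35, 1.11 and 1.05% in iron negative libraries. Sphk1 stood at 2.86% in iron positive 3L but 0.244 to 0.810% in the other iron positive libraries, against 0.419 to 1.07% in iron negative libraries. Iron positive 3L, the library with the lowest endothelial sum of its fraction, was thus the highest in the ratios of S1pr1, Plpp3 and Sphk1. Within its fraction it was also the highest in the ratio of every other member but Plpp1. Pecam1 and Eng, which macrophages also express, made up 23.7 to 40.0% of the sum in iron positive and 56.5 to 65.7% in iron negative libraries. Against the other 11 markers, Plpp1 was at 2.31 to 3.59% in iron positive and 5.07 to 8.10% in iron negative libraries. Spns2 was then at 2.33 to 3.67% in iron positive and 26.4 to 32.9% in iron negative libraries, and S1pr3 at 0.698 to 1.56% in iron positive and 2.81 to 4.07% in iron negative libraries. The part that endothelial, mural or fibroblast RNA has in the members' differences was not tested.

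**Figure D4:**
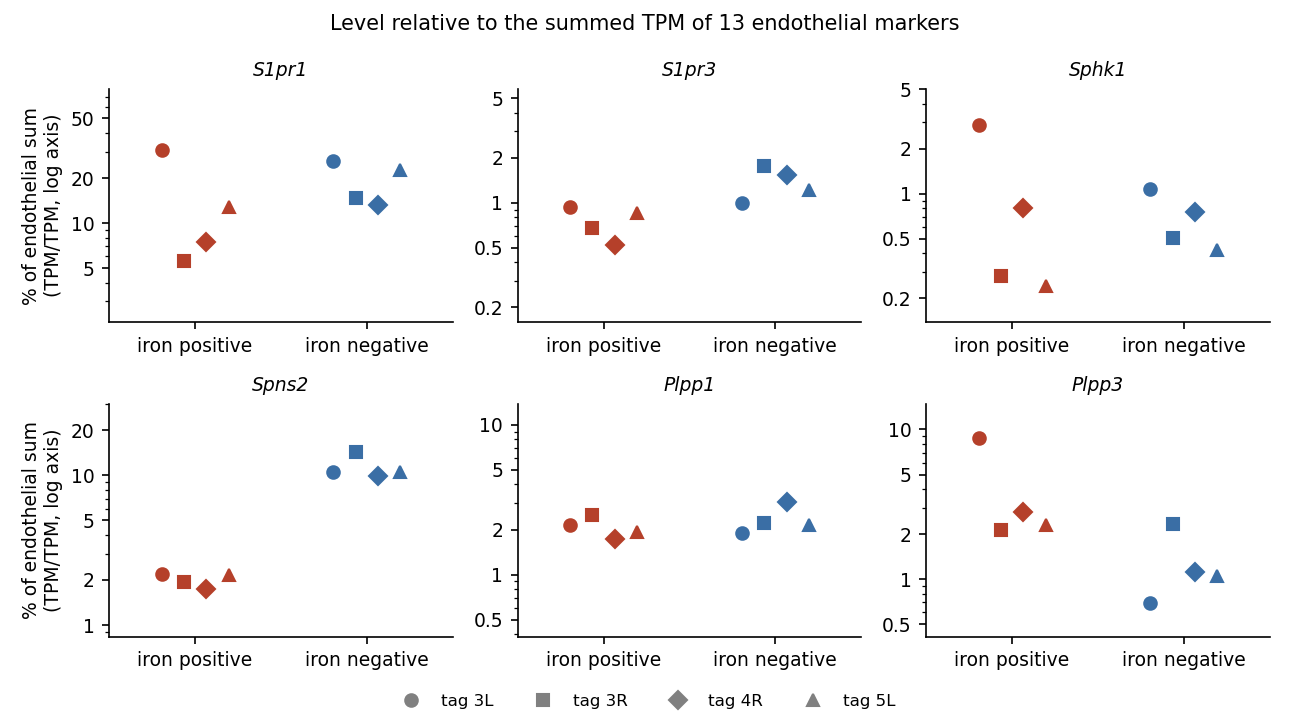
TPM of each of the 6 called members as a percentage of the summed TPM of 13 endothelial markers, on log axes of equal span, iron positive libraries in red left of iron negative libraries in blue, 1 symbol per tag. Plpp1 stays between 1.74 and 3.05%. Among iron positive libraries every other member shown is highest in 3L.

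Markers of red cells and platelets, which carry S1P in blood, had overlapping sums in the fractions. Within every tag, however, both sums were higher in the iron positive library than in its iron negative partner. Red cell markers summed to 146 to 739 TPM in iron positive and 36.7 to 205 TPM in iron negative libraries, with 0 of 5 tested called. Platelet markers, among which Pf4 is also expressed by macrophages, summed to 1710 to 5220 TPM in iron positive and 1550 to 1790 TPM in iron negative libraries, with 1 of 4 tested higher. Neutrophil markers summed to 76.5 to 152 TPM in iron positive and 44.7 to 63.4 TPM in iron negative libraries, with 2 of 5 higher. Lymphocyte markers were low, at 11.3 to 15.6 TPM in iron positive and 16.8 to 26.0 TPM in iron negative libraries. Their part in the members' levels was not tested.

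The genes whose centred profile of log2(CPM + 0.5) over the 8 libraries lay nearest to a member were found by root mean square difference. The search covered 9853 tested genes with a mean of at least 5 CPM. Members and genes with a predicted, clone-like or pseudogene name were left out of it. For S1pr1 the nearest genes were Plekhg1 (0.24 log2 units), Rgcc (0.27) and Grk5 (0.29), and for Sphk1 Dmpk (0.30), Igf2r (0.35) and Papss2 (0.36). For Plpp3 they were Des (0.39), Itga1 (0.41) and Lrg1 (0.43), and for Sgpl1 Uso1 (0.03), Clcn7 (0.04) and Chmp3 (0.05). The 0.5 added before the log draws low levels together, such as those of Sphk1 and Des in iron negative libraries. Skeletal muscle markers, with 7 of 7 higher, summed to 25.4 to 79.7 TPM in iron positive and 5.47 to 7.06 TPM in iron negative libraries, and their part in these profiles was not tested. Some of these markers, such as Myh4, passed the filter on low counts only with the help of their iron positive libraries. Grk5 codes for a receptor kinase, Des for the muscle filament desmin and Clcn7 for a lysosomal chloride transporter. The nearest other member was Sphk1 to S1pr1 (0.52), S1pr2 to Sgpl1 (0.16) and Plpp1 to Plpp3 (1.0), so none of these 4 members had another member among its 3 nearest genes.

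The rest of the pathway was taken from 4 lists of 59 genes, likewise drawn up with earlier results of these data known. Of the 49 that were tested, 6 were higher and 4 lower in iron positive cells by edgeR, with a median log2 fold change of -0.03, beside 8.49% higher and 5.21% lower over all genes tested. These calls too were lost, to 0 higher and 0 lower, without iron negative 3L, 3R, 4R or 5L, each left out in turn. With the tag as a replicate block in the edgeR fit, which pairs the fractions, the counts were 11 higher and 10 lower. With macrophage marker counts as the scale, which moves the median of all genes to 0.198, 9 were higher and 0 lower.

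Of the 25 tested genes that supply sphingosine and ceramide, 4 were higher and 1 lower. Acer2, a Golgi ceramidase that releases sphingosine, had 2.24, 20.9, 10.5 and 3.35 CPM in iron positive libraries against 0.530, 0.682, 0.537 and 0.348 CPM in iron negative libraries (log2 fold change 4.13 ± 0.75, edgeR adjusted p = 0.0179). Cers4, a ceramide synthase, averaged 4.14 ± 3.13 CPM in iron positive and 0.488 ± 0.0989 CPM in iron negative cells (3.07 ± 0.63, adjusted p = 0.0211). Both ran 3R, 4R, 5L, 3L among iron positive libraries, the order of the endothelial markers. Their iron negative values rest on few estimated counts, and both passed the filter on low counts only with the help of their iron positive libraries. Sgms2, a sphingomyelin synthase, ran otherwise, with 9.92, 4.03, 8.46 and 2.91 CPM in iron positive against 1.81, 0.975, 1.39 and 1.13 CPM in iron negative libraries (2.25 ± 0.42, adjusted p = 0.0184).

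The remaining calls on that list were small. Asah2, the neutral ceramidase, averaged 24.0 ± 3.73 CPM in iron positive and 18.2 ± 0.714 CPM in iron negative cells (log2 fold change 0.40 ± 0.11, edgeR adjusted p = 0.0473). Asah1, the lysosomal acid ceramidase, averaged 421 ± 32.0 CPM in iron positive and 504 ± 13.8 CPM in iron negative cells (-0.26 ± 0.07, adjusted p = 0.0445). With macrophage scaling Asah1 stood at -0.07 and was not called, and Asah2 at 0.62 with an adjusted p of 0.0708.

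Of the other S1P genes, 1 of 6 tested was called. Plpp2, the remaining phosphatase of the Plpp1 and Plpp3 family, had 17.0, 16.9, 19.7 and 14 CPM in iron positive against 12.8, 12, 11.6 and 11.7 CPM in iron negative libraries (log2 fold change 0.49 ± 0.11, edgeR adjusted p = 0.0256). Its fractions did not overlap, and the step was much smaller than for Plpp3. The intracellular S1P phosphatase Sgpp1 had a log2 fold change of -0.19 and the red cell and platelet exporter Mfsd2b of 0.25, and neither was called. S1pr5 and Apom, a plasma carrier of S1P, did not pass the filter on low counts.

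Lysophosphatidic acid is a related lipid that shares the Plpp phosphatases, and 1 of its 5 tested genes was higher. The receptor Lpar1 had 11.6, 8.01, 7.89 and 4.62 CPM in iron positive against 2.21, 2.49, 1.34 and 2.13 CPM in iron negative libraries (log2 fold change 1.97 ± 0.30, edgeR adjusted p = 0.0173). Enpp2, the secreted enzyme that makes lysophosphatidic acid, was below the filter, with 1.59, 6.25, 1.66 and 0.22 CPM in iron positive and 0.0442 to 0.439 CPM in iron negative libraries.

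Of the genes of receptor coupling and turnover, 0 of 13 tested were higher and 3 lower. Cd69, a lymphocyte and myeloid activation protein that pulls S1pr1 off the cell surface, had 36.4, 37.0, 33.8 and 63.9 CPM in iron positive against 74.0, 63.0, 85.4 and 91.3 CPM in iron negative libraries (log2 fold change -0.87 ± 0.21, edgeR adjusted p = 0.0324). The fractions overlapped slightly, since iron positive 5L lay above iron negative 3R. Gna12, a G protein through which S1pr2 signals, averaged 308 ± 26.0 CPM in iron positive and 396 ± 10.1 CPM in iron negative cells (-0.36 ± 0.07, adjusted p = 0.0199), and Rac1, a small GTPase downstream of S1pr1, 471 ± 15.7 CPM in iron positive and 567 ± 29.3 CPM in iron negative cells (-0.27 ± 0.06, adjusted p = 0.0296). Scaled to macrophage markers these 3 changes were -0.69, -0.16 and -0.06, and none was called. Klf2, the transcription factor known to drive S1pr1 in lymphocytes and endothelium, had 602, 748, 822 and 1280 CPM in iron positive against 684, 847, 1020 and 1530 CPM in iron negative libraries. Its ranges overlapped and edgeR did not call it (adjusted p = 0.619), but it was lower in the iron positive library of each of the 4 tags, and with the tag as a replicate block its log2 fold change of -0.23 was called (edgeR adjusted p = 0.0451).

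**Figure D5:**
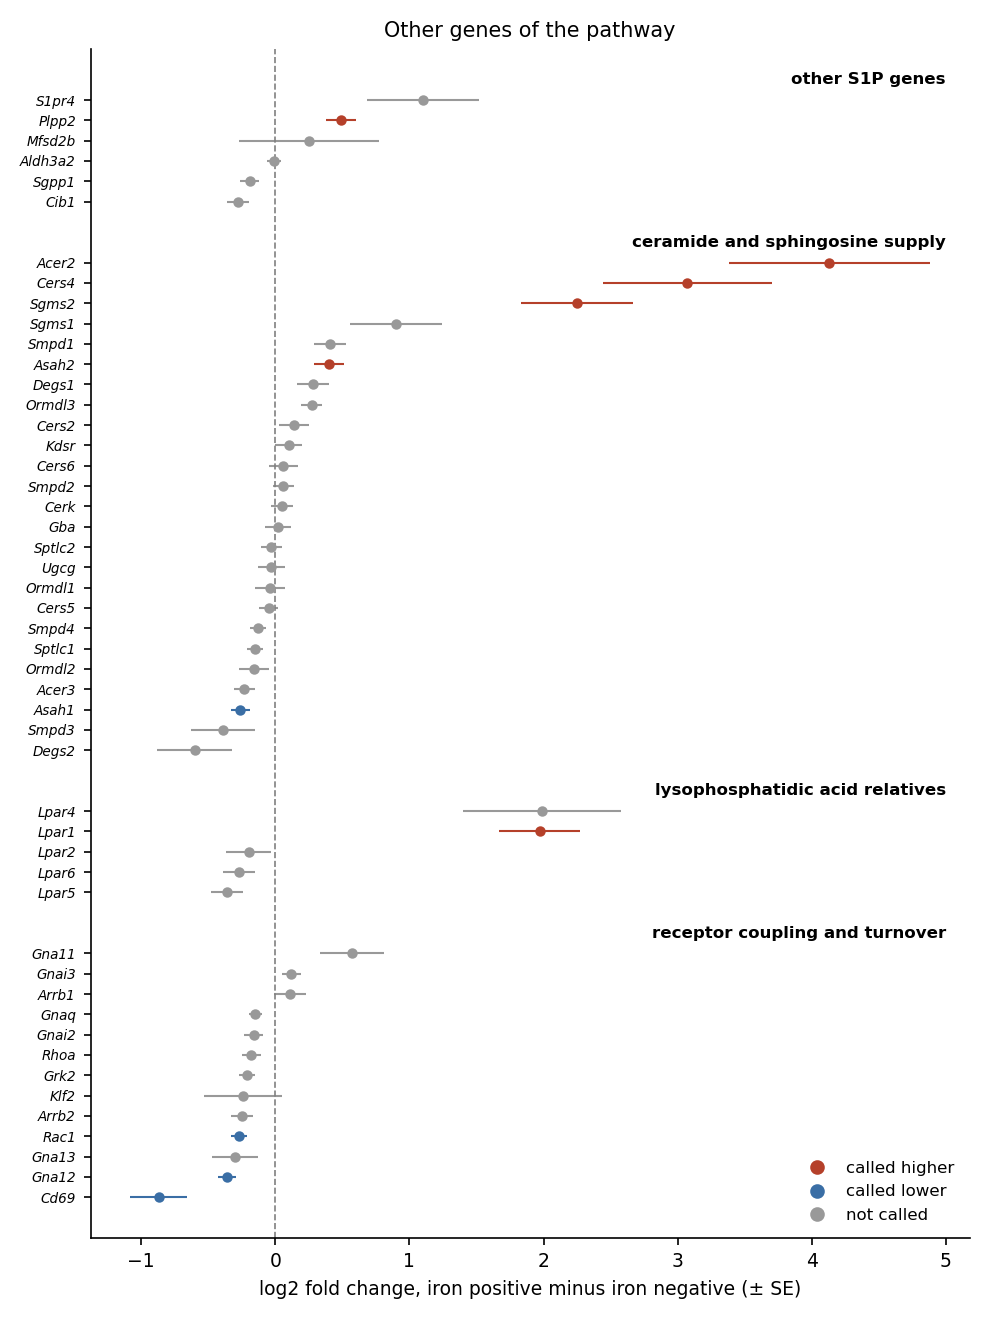
Log2 fold change, iron positive minus iron negative, with its standard error for the 49 tested genes of the 4 pathway lists; red marks genes called higher, blue lower and grey not called. Acer2 (4.13) and Cers4 (3.07) lie farthest to the right and Cd69 (-0.87) farthest to the left, while most ceramide genes sit near 0.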

How the data were processed

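RNA from 4 iron positive and 4 iron negative fractions was sequenced in bulk. Per the submitters' processing notes the authors used kallisto 0.46.2 and mm10; no source used here names the transcript release. Per the file headers, each deposited table holds an estimated count per transcript, which need not be whole, a TPM value scaled by effective length, and transcript lengths and effective lengths. Of 119414 transcripts, 116728 matched GENCODE vM21 without version; the others held 0.888 to 0.961% of counts. Estimated counts and TPM were summed per gene and the counts rounded. The main test was edgeR 4.0.16 (quasi-likelihood, TMM, filterByExpr; R 4.3.3) on all 8 libraries, with p-values adjusted by Benjamini-Hochberg over 13343 genes and SE taken as the fold change over the root of F. DESeq2 1.42.0 and limma 3.58.1 were alternatives, as were other scalings, filters and library subsets. CPM values are TMM-scaled. Transcript shares were tested by exact permutation (scipy 1.17.1). Scripts were tested on simulated data.

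Members, gene lists and alternatives were chosen with earlier results of these data known. Genes named besides the members are those called on each list, up to 6, and the 3 profiles nearest to S1pr1, Sphk1, Sgpl1 and Plpp3; others in the text were named after their values were seen. Same-tag fractions deviated together (r = 0.551, 0.553, 0.276 and 0.331 for 3L, 3R, 4R and 5L, at most 0.26 between different tags), so the tags were treated as pairs in the blocked alternative. No 2 libraries of the same fraction agreed within sampling noise. P-values measure the spread between these libraries, which may be partly technical. Promoter windows are from RefSeq (GRCm38.p6), exons from the GENCODE genome of GRCm38.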

Additional observations from a re-analysis of the deposited data

Results flagged for a closer look

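Of 46 sets of 4 libraries checked for a value far from the rest, 3 were marked, and chance marks about 1 in 20 such sets. Spns2 had 3.51 CPM in iron negative library 3R, the highest of its fraction, with the next at 2.73 CPM. Cd69 had 63.9 CPM in iron positive library 5L, with the next at 37.0 CPM. Rac1 had 611 CPM in iron negative library 3L, with the next at 554 CPM.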

How the results depend on the processing

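S1pr1, S1pr3, Sphk1, Spns2, Plpp1 and Plpp3 were above 0 in log2 fold change in every alternative, and 6 members were called higher and 0 lower with the tag as a replicate block, other scalings, other filters and DESeq2. Members called higher were 1 with limma voom, 2 with limma on TPM and 2 with tags 3L and 5L only; leaving out 1 library gave 0 to 6 with edgeR and 6 with DESeq2. Pathway genes called higher were 11 with the replicate block, 10 with DESeq2, and 1 with voom or with tags 3L and 5L only, and 0 to 10 (edgeR) or 5 to 12 (DESeq2) with a library left out. Pathway genes called lower were 10 with the replicate block, 9 with DESeq2, 2 without a filter, 1 with voom or TPM, 0 with macrophage scaling or tags 3L and 5L only, and 0 to 8 (edgeR) or 6 to 10 (DESeq2, 7 without any 1 iron negative library) with a library left out. Uncalled signs turned for Sphk2 under macrophage scaling (0.06) and S1pr2 without iron positive 4R (-0.01 by edgeR, 0.00 by DESeq2; -0.01 to 0.16 over libraries left out). The causes were not tested. Over all genes, edgeR called 1133 higher and 695 lower, against 1377 and 14 with macrophage scaling, 1705 and 1253 with the replicate block, and 0 and 0 when 3L, 3R or 4R was dropped from the iron negative side. Limma voom called 189 higher and 273 lower over all genes, and limma on TPM 540 and 252. The 0 transcript share calls stayed at 0 in every alternative, but paired permutation within tags cannot go below p = 0.125. The unpaired permutation cannot go below p = 0.0286, at which a transcript by itself could not pass the adjusted threshold. Sphk1 and Plpp1 in iron negative cells rest on few counts.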
